A study of Mus musculus with 24 samples.

Results

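Day 30 (D30) mouse retinal organoids (MROs) were compared with day 25 (D25) MROs across all annotated genes. The comparison holds 12 of the 24 organoids of the series, the 6 labelled D30 and the 6 labelled D25, chosen by the day and the control number in their titles. MROs are small pieces of retinal tissue grown in suspension from mouse embryonic stem cells, here from the wildtype line E14Tg2a, with no treatment other than the solvent water in the period sampled. Per the study's methods, which do not describe that solvent, the culture medium held serum. The methods also state that the retinoid analog EC23 was given for some days of the earlier culture, to both groups alike. Every organoid came from 1 independent experiment and 1 cell line, so the replicate error is the spread between individual organoids of one differentiation. Total RNA of each whole organoid, depleted of ribosomal RNA, gave 1 library. The 6 organoids at D20 and the 6 at D22 were included to estimate the spread and to show the earlier levels of the genes described here.

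In the mouse eye, rods, bipolar cells and Müller glia are the last retinal cell types to be born, and they mature after birth. A rod detects light in its outer segment, where light leads to activation of the G protein transducin: transducin activates the phosphodiesterase PDE6, PDE6 lowers cyclic GMP, and channels gated by cyclic GMP close. Guanylate cyclases and a set of shutoff proteins return the cell to its dark state, and ribbon synapses pass the signal to bipolar cells. Müller glia span the retina, take up glutamate and water, and respond to stress with reactive gliosis, for which the filament protein GFAP is the usual marker.

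The reads assigned to a gene or assembled locus numbered 14524620 to 18078956 in a D25 organoid and 15814895 to 19477108 in a D30 organoid. Levels are given as CPM, a count scaled to a common library size with TMM, on which 3 counts are worth 0.154 to 0.207. They compare one gene between organoids, not different genes with each other. D30 organoid 6 stood apart from its group with a TMM factor of 1.06, against 0.906 to 0.978 in the other D30 organoids. Summed levels of marker genes for cells outside the neural retina differed between organoids within each timepoint. Here and below, a summed level covers the tested members of a list. The summed level of the 7 tested pigment epithelium genes, of 12 listed, ranged from 84.4 to 686 CPM at D25 and from 47.4 to 2748 CPM at D30. It was highest in D30 organoids 2 and 6, and nearly all of it in those organoids was Ttr (2627 and 2461 CPM). Without Ttr the sum ranged from 50.9 to 204 CPM at D25 and from 27.5 to 123 CPM at D30, with Rpe65, Best1 and Slc16a8 among the members below the filter. That of the 11 tested cortical neuron genes, of 12 listed, ranged from 30.3 to 373 CPM at D25 and from 22.2 to 356 CPM at D30, lowest in D30 organoid 6. Neurod6, which is also on the amacrine cell list, made up part of it, with 197 CPM in D25 organoid 1 and 0.776 CPM in D30 organoid 6. The cortical sum therefore cannot separate cortical cells from amacrine cells. Of the 11 genes of microglia and blood only Cd68 passed the filter, and it reached at most 3.49 CPM in any organoid. Of the rest, 4 had no count, namely Ptprc, Tyrobp, Hbb-bs and Hba-a1. The organoids were measured whole, so fewer cells of a type and less RNA per cell cannot be told apart in any result below.

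Of the 46603 annotated genes in the count tables, 16253 passed the filter and were tested, and 1199 of them were called different between D25 and D30 (7.38%). A call means an adjusted p under 0.01 in the quasi-likelihood test of edgeR. The 739 genes higher at D30 made up 4.55% and the 460 genes lower at D30 made up 2.83%. Of the higher genes 377 changed by at least 2-fold and 127 by at least 4-fold, against 174 and 36 of the lower genes. The levels of the 6 D25 and the 6 D30 organoids did not overlap for 1223 genes (7.52%), 725 of them higher and 498 lower at D30. The split between higher and lower depended on the scaling. In a fit of annotated genes without the assembled loci, 743 genes were higher and 744 lower, and 701 of the higher and 459 of the lower genes were shared with the fit of all features. The median log2 fold change of the tested genes was 0.05 in the fit of all features and -0.0037 in the fit of annotated genes. Of the protein-coding genes 710 were higher and 402 lower among 13263 tested (8.38%), whereas 8 of the 336 long intergenic noncoding RNAs were higher and 8 lower (4.76%).

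**Figure D1:**
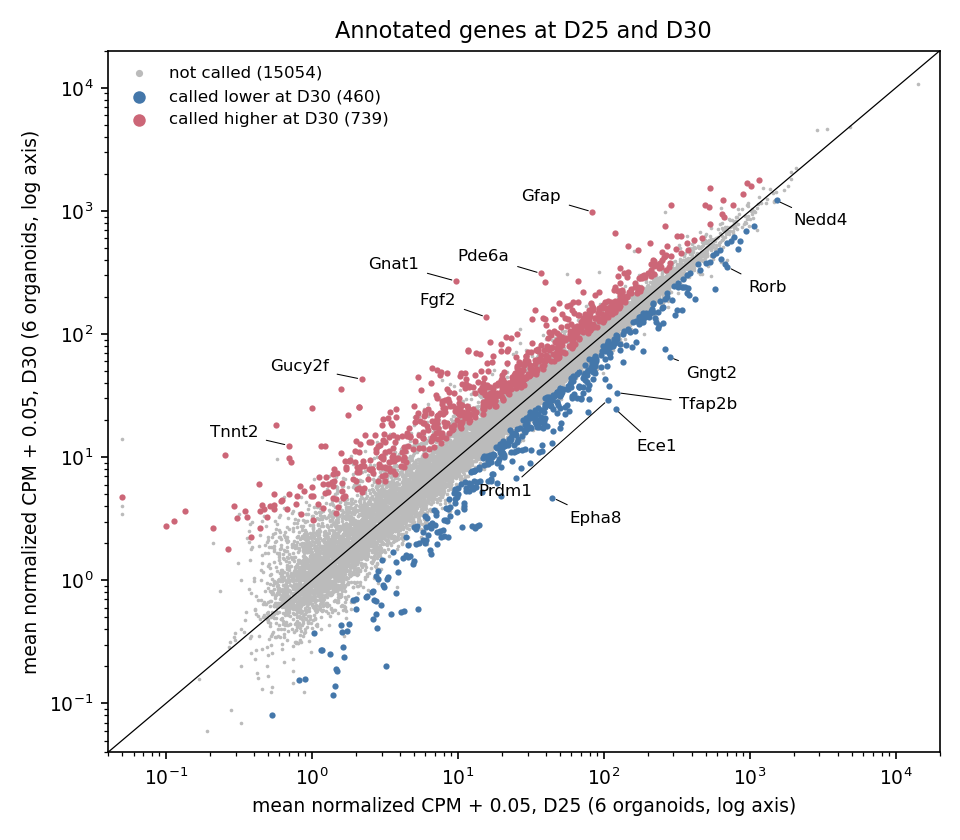
Mean normalized CPM of the 16253 tested annotated genes at D25 (x axis) and D30 (y axis), 6 organoids each, both on log axes with 0.05 CPM added and the line of equal levels drawn. The 739 genes called higher lie above the line and the 460 called lower lie below it, and Gnat1, Gucy2f and Tnnt2 lie farthest above the line among the labelled genes, Epha8 farthest below.

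Among called genes with at least 100 normalized counts on average and organoids that did not overlap, the 12 largest rises were led by the rod gene Gnat1. Gnat1 (GRCm38 chr9:107674474-107679712, minus strand), the α subunit of rod transducin, had a lowest, median and highest level of 6.65, 8.31 and 13.7 CPM at D25 and of 199.6, 273 and 323 CPM at D30. This was a 28-fold rise (log2 fold change 4.81 ± 0.32 SE, adjusted p = 2.78e-11). The rod guanylate cyclase gene Gucy2f and the rod phosphodiesterase gene Pde6a were also among them, and both are described with the rod genes below. The protein-coding gene 5430419D17Rik was at 0.976, 1.57 and 2.14 CPM at D25 and at 24.3, 33.4 and 56.6 CPM at D30 (log2 fold change 4.53 ± 0.37), after a mean of 0.01 CPM at D20. Tnnt2, which encodes the troponin T of cardiac muscle, was at 0.244, 0.352 and 2.09 CPM at D25 and at 4.11, 12.5 and 19.6 CPM at D30 (4.29 ± 0.53). The other rises of this rank were Lad1 (3.67 ± 0.36), which encodes the basement membrane protein ladinin, the transporter gene Abca8a (3.62 ± 0.38), the growth factor gene Fgf2 (3.13 ± 0.28), Lrrc2 (2.83 ± 0.27), the sodium channel gene Scn7a (2.74 ± 0.32), Lhfpl3 (2.72 ± 0.44) and Cabp5 (2.67 ± 0.25), a calcium sensor of bipolar cells. Lad1 (chr1:135818598-135833342) and Tnnt2 (chr1:135836354-135852260) lie close together on the plus strand. Whether their rises are separate was not tested.

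The 12 largest falls chosen in the same way included genes of cones, of inner retinal neurons and of axon guidance. Epha8, a receptor for ephrin guidance cues, was at 24.6, 41.9 and 80.8 CPM at D25 and at 3.36, 4.12 and 7.38 CPM at D30, a 9.61-fold fall (log2 fold change -3.26 ± 0.23, adjusted p = 7.62e-11). Ece1, which encodes the enzyme that releases active endothelins from their precursors, was at 83.0, 117 and 171 CPM at D25 and at 17.5, 24.2 and 31.2 CPM at D30 (-2.29 ± 0.15, adjusted p = 2.78e-11). Edn2, the gene of one of those endothelins, moved the other way. It had no count in 4 of the 6 D25 organoids and at most 0.244 CPM in the other two, and all 6 D30 organoids held between 1.03 and 4.43 CPM (adjusted p = 8.94e-05). The remaining falls were Acbd7 (-2.34 ± 0.38), Ccdc60 (-2.31 ± 0.21), the hemidesmosome collagen gene Col17a1 (-2.31 ± 0.29), the ganglion cell gene Sncg (-2.19 ± 0.29), the cone gene Gngt2 (-2.13 ± 0.20), the long noncoding RNA C230057A21Rik (-2.04 ± 0.21), Rxrg (-1.98 ± 0.23), Stbd1 (-1.88 ± 0.29), which encodes a glycogen-binding protein, Tfap2b (-1.88 ± 0.31) and Prdm1 (-1.87 ± 0.15). The most abundant called genes changed little. Among the higher ones these were Sptan1, which encodes spectrin, Gngt1 and Impg2, with log2 fold changes between 0.64 and 0.82. Among the lower ones they were the ubiquitin ligase gene Nedd4 (-0.32 ± 0.06), the lactate dehydrogenase gene Ldha (-0.49 ± 0.09) and the histone chaperone gene Nap1l1 (-0.45 ± 0.08), and Nedd4 passed the threshold no longer without D25 organoid 3 (adjusted p = 0.0110).

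Most tested genes of the rod phototransduction cascade were higher at D30. Of its 22 genes 21 were tested, with Guca1b below the filter, and 14 were called higher and 7 not called, with a median log2 fold change of 1.23 against 0.05 over all tested genes, of which 4.55% were called higher. The called members reached from activation to the recovery steps and included the transducin subunits Gnat1, Gnb1 and Gngt1, the phosphodiesterase subunits Pde6a and Pde6g, the channel subunit Cnga1, the exchanger Slc24a1, Rcvrn, the cyclases Gucy2e and Gucy2f, and Rgs9, Rgs9bp and Gnb5, which together speed the shutoff of transducin. Without any 1 of the 12 organoids 13 or 14 of these 14 genes remained called. The organoids of the 2 timepoints did not overlap for 13 of these 14 genes, all but Rgs9bp, nor for Cngb1, which was not called, against 7.52% of all tested genes that did not overlap.

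Gucy2f was at 0.654, 2.23 and 3.85 CPM at D25 and at 29.6, 38.1 and 73.8 CPM at D30, a 19.9-fold rise (4.32 ± 0.33, adjusted p = 2.19e-10). Gucy2e, the other retinal guanylate cyclase, already stood at 75.5, 93.1 and 107 CPM at D25 and reached 149.7, 222 and 280 CPM at D30, a 2.36-fold rise (1.24 ± 0.12). Every D30 organoid was above every D25 organoid for both cyclase genes. Recoverin (Rcvrn), a calcium sensor of photoreceptors, rose 2.84-fold (1.51 ± 0.25, adjusted p = 0.000162), and the transducin γ subunit Gngt1 rose 1.76-fold (0.82 ± 0.16, adjusted p = 0.00113).

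The catalytic core of rod PDE6 is a pair of subunits encoded by Pde6a and Pde6b, and their genes moved differently. Pde6a was at 27.7, 36.8 and 51.7 CPM at D25 and at 218, 314 and 422 CPM at D30, an 8.37-fold rise (log2 fold change 3.06 ± 0.22, adjusted p = 1.20e-10). Pde6b was at 868, 1059.5 and 1141 CPM at D25 and at 644, 1098 and 1284 CPM at D30, with the D25 organoids inside the D30 range (-0.01 ± 0.16, adjusted p = 0.989). Per kilobase of exon, Pde6a stood at 7.91 CPM at D25 and 66.2 CPM at D30, and Pde6b at 207 and 206 CPM. On the same scale Gnat1 went from 3.18 to 88.9 CPM and Gngt1 from 274 to 483 CPM. The other members that were not called were Sag, Grk1, Unc119, Pdc, Guca1a and Cngb1. D30 organoid 1 had the lowest summed level of the list at D30, 13113 CPM, inside the D25 range of 12794 to 14681, and the other D30 organoids lay between 15987 and 25120 CPM.

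**Figure D2:**
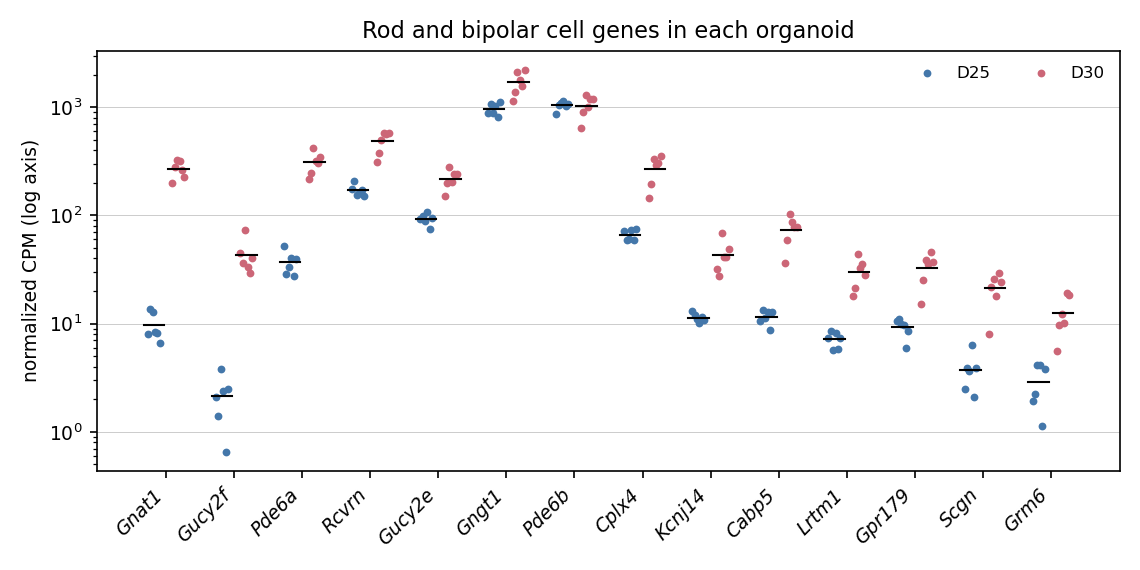
Normalized CPM of rod genes (Gnat1 to Pde6b), synapse and channel genes (Cplx4, Kcnj14) and bipolar cell genes (Cabp5 to Grm6) in each of the 6 D25 and 6 D30 organoids on a log axis, with the mean as a bar. The timepoints separate for every gene except Pde6b, whose D30 organoids spread from 644 to 1284 CPM around the D25 organoids.

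Promoters of rod genes commonly carry TAATCC, the core sequence bound by the photoreceptor homeodomain protein CRX. Gucy2f, Gucy2e and Gngt1 are shown here as examples of the rod genes called higher that hold the motif in either orientation (TAATCC or GGATTA). The window searched was the 250 bases before the start in RefSeq, which can differ from that of the annotation used for the other coordinates. In GENCODE vM21 Gngt1 starts at chr6:3993792, inside the window printed for it below. Cnga1 and Gnb5, also called higher, hold it too and are not shown, with matches 228 and 6 bases before the start. The sequences are from RefSeq on GRCm38.p6, printed 5′ to 3′ on the strand of the gene, with matches in capitals.
Gucy2f (chrX:142196937-142197186, minus strand): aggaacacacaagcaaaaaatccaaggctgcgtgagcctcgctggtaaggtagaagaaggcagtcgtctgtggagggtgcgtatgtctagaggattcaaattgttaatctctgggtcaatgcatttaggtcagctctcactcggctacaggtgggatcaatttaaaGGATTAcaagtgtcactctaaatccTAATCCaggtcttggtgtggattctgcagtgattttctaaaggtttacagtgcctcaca
Gucy2e (chr11:69237023-69237272, minus strand): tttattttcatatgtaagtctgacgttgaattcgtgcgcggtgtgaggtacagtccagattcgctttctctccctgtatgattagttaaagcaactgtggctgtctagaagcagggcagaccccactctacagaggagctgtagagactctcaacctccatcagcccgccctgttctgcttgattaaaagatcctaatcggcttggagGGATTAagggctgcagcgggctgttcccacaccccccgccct
Gngt1 (chr6:3993758-3994007, plus strand): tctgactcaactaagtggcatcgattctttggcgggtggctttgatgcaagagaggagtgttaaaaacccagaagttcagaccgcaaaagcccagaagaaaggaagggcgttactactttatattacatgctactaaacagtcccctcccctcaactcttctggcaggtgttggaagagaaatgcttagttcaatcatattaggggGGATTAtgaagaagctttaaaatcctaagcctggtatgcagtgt
Gucy2f holds 2 matches, with first bases 84 and 59 bases before the start. The single match of Gucy2e lies 42 bases before the start and that of Gngt1 lies 44 bases before it. Of the 21 tested rod genes 15 had a promoter in this table, and 8 of those held the motif (53.3%): Cnga1, Gnb5, Gngt1, Gucy2e and Gucy2f, which were called higher, and Cngb1, Guca1a and Sag, which were not called. It was held by 6.38% of all 27025 promoters. Of the genes called higher 7.94% (46 of 579 with a promoter) held the motif, compared with 4.94% of those called lower (16 of 324) and 5.10% of those not called (510 of 10006). The shares describe letters in these windows and say nothing on binding.

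Transcription factors of the photoreceptor lineage went down where they changed, with 1 exception. Of the 15 tested, 5 fell and 1 rose, against 2.83% lower and 4.55% higher over all tested genes. The median log2 fold change of the list was -0.25. Otx2, a homeodomain factor that starts the photoreceptor and bipolar programme, was at 278, 354 and 402 CPM at D25 and at 127, 157 and 198 CPM at D30 (log2 fold change -1.12 ± 0.11, adjusted p = 1.43e-08). Rorb, a nuclear receptor that acts upstream of the rod factor NRL, fell from 609, 713 and 749 CPM to 283, 326 and 462 CPM (-1.0 ± 0.09). Prdm1, which keeps young photoreceptors from becoming bipolar cells, went from 79.1, 105 and 135 CPM to 20.5, 28.5 and 43.1 CPM, a 3.66-fold fall (adjusted p = 3.72e-10). Rxrg, a nuclear receptor of cones, fell 3.94-fold, and Neurod1 was the other member called lower. All D30 organoids lay below all D25 organoids for Otx2, Rorb, Prdm1 and Rxrg. Esrrb, an orphan nuclear receptor found in rods and also in pluripotent stem cells, was the member that rose, from 0.332, 0.580 and 1.04 CPM to 7.08, 8.88 and 14.1 CPM (log2 fold change 3.91 ± 0.62, adjusted p = 8.59e-05). Of the 8 genes on the list of pluripotent stem cells only 2 passed the filter, Esrrb and Pou5f1, and Esrrb was the one called. Pou5f1 stood at 0 in 5 of the 6 D30 organoids (log2 fold change -3.28 ± 0.86, adjusted p = 0.0146). It was called lower with DESeq2 and in the edgeR fit of annotated genes alone (adjusted p = 0.00946 in that fit).

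Crx and Nrl, which maintain photoreceptor and rod identity, stayed abundant. Crx was at 858, 981 and 1096 CPM at D25 and at 537, 777 and 885 CPM at D30, with 4 of the 6 D30 organoids below every D25 organoid (-0.38 ± 0.10, adjusted p = 0.0142). It passed the threshold without D25 organoid 1 or D30 organoid 6 (lowest adjusted p = 0.00531), and also with no filter on low counts or with filterByExpr. Nrl was at 268, 359.8 and 384 CPM at D25 and at 209, 307 and 344 CPM at D30, and the groups overlapped (-0.25 ± 0.16, adjusted p = 0.463). The summed level of the list was 3924 to 5221 CPM at D25 and 2306 to 3936 CPM at D30.

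Few cone genes were called. Of the 9 cone phototransduction genes tested 2 fell, 1 rose and 6 were not called, with a median log2 fold change of 0.17. The shares over all tested genes were 2.83% lower and 4.55% higher. Opn1sw, the short wavelength opsin, was at 5.15, 6.43 and 7.79 CPM at D25 and at 0.588, 1.80 and 2.96 CPM at D30 (log2 fold change -1.91 ± 0.34, adjusted p = 0.000307). Gngt2, the γ subunit of cone transducin, was at 194, 287 and 361 CPM at D25 and at 39.5, 55.1 and 109 CPM at D30, a 4.37-fold fall (-2.13 ± 0.20, adjusted p = 1.76e-08). Neither pair of groups overlapped. Slc24a2, an ion exchanger of cones and other neurons, rose from 3.51, 8.82 and 22.5 CPM to 16.5, 37.9 and 65.7 CPM (1.65 ± 0.37, adjusted p = 0.00468), and 2 D30 organoids lay inside the D25 range. That call was lost without D25 organoid 2, 3, 5 or 6 or D30 organoid 4 or 5 (adjusted p up to 0.0205).

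**Figure D3:**
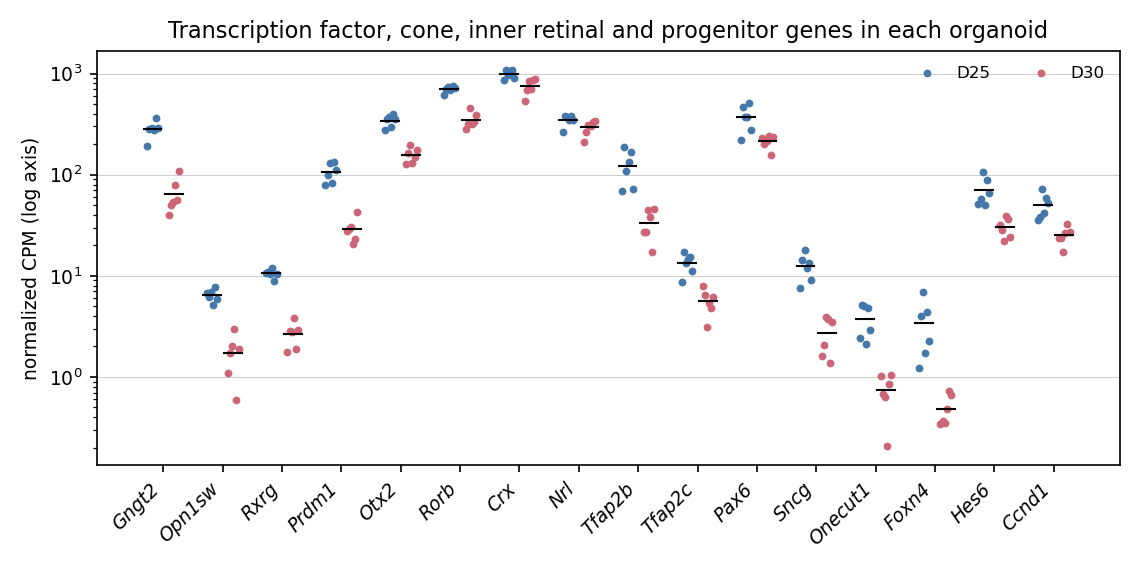
Normalized CPM in each of the 6 D25 and 6 D30 organoids on a log axis, with the mean as a bar, for cone genes (Gngt2, Opn1sw), photoreceptor factors (Rxrg to Nrl), amacrine factors (Tfap2b, Tfap2c, Pax6), Sncg, Onecut1 and progenitor genes (Foxn4, Hes6, Ccnd1). The D30 organoids lie below the D25 organoids for most of them, and they overlap for Crx, Nrl and Pax6.

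Among genes of the outer segment and its cilium, 3 of 25 tested rose, with a median log2 fold change of 0.25, and the other 22 were not called. The lipid flippase gene Atp8a2 was at 60.7, 73.7 and 76.4 CPM at D25 and at 91.2, 117 and 146 CPM at D30 (0.72 ± 0.14). Abca4, which clears retinal from disc membranes, rose 1.64-fold (0.71 ± 0.11, adjusted p = 6.85e-05). Impg2, which encodes a proteoglycan of the matrix around the outer segments, rose 1.55-fold (0.64 ± 0.14), a call lost without D30 organoid 3 (adjusted p = 0.0107). Without D30 organoid 1 the list had 5 calls and without D30 organoid 3 it had 2, and DESeq2 called 7. In the visual cycle, which regenerates the light-sensitive chromophore, 1 of 12 genes rose, a share near the 4.55% of all tested genes. That was Rdh8, a retinol dehydrogenase of the outer segment, from 20.9, 29.4 and 30.5 CPM to 35.2, 55.4 and 58.6 CPM (0.89 ± 0.18, adjusted p = 0.00119). Rdh12, a related enzyme, was at 194, 222 and 256 CPM at D25 and at 245, 376 and 435 CPM at D30 (0.71 ± 0.23, adjusted p = 0.0537). Rbp3, which carries retinoids between cells, was at 964, 1153 and 1367 CPM at D25 and at 809, 1408 and 1542 CPM at D30 (adjusted p = 0.662).

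Of 10 photoreceptor ion channel and pump genes 2 were called higher. Kcnj14, an inwardly rectifying potassium channel, was at 10.1, 11.3 and 13.0 CPM at D25 and at 27.7, 41.5 and 68.2 CPM at D30 (log2 fold change 1.93 ± 0.26, adjusted p = 6.58e-06). Cabp4, which regulates the calcium channel of the photoreceptor terminal, rose from 17.4, 20.4 and 27.2 CPM to 42.0, 56.6 and 80.7 CPM (1.42 ± 0.35, adjusted p = 0.00856). Cabp4 was close to the threshold, since its call was lost without any 1 organoid other than D30 organoids 1 and 2 (adjusted p up to 0.0259). Of 19 tested ribbon synapse genes 2 were called higher. Cplx4, the complexin of photoreceptor ribbon synapses, was at 59.2, 66.0 and 74.4 CPM at D25 and at 145, 299 and 356 CPM at D30, a 4.07-fold rise (2.02 ± 0.30, adjusted p = 3.01e-05). Rims2, an active zone protein, rose 1.61-fold (0.68 ± 0.12). Genes of synaptic vesicles and adhesion in general gave 1 rise and 1 fall of 24 tested, near the shares over all genes (4.55% and 2.83%). Cplx2, a complexin of conventional synapses, fell from 195, 230.5 and 268 CPM to 85.7, 95.7 and 169 CPM (-1.06 ± 0.16, adjusted p = 5.44e-05), opposite in sign to Cplx4. Sv2c rose 2.47-fold (adjusted p = 0.00991), a call lost without any 1 organoid other than D25 organoid 1 and D30 organoid 6 (adjusted p up to 0.0413).

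Of 26 bipolar cell genes 25 were tested, 9 rose, 2 fell and 14 were not called, and the median log2 fold change was 0.91. Over all tested genes 4.55% were called higher and 2.83% lower. The called members that rose included several components of the ON bipolar cell dendrite, where the glutamate receptor encoded by Grm6 controls the channel encoded by Trpm1: Grm6, Trpm1, Nyx and Gpr179, besides Isl1, Prkca, Scgn, Cabp5 and Lrtm1. The others called, both lower, were Otx2, which photoreceptors share, and Rgs11. Cabp5 was at 8.80, 12 and 13.5 CPM at D25 and at 36.2, 78.4 and 104 CPM at D30, a 6.35-fold rise (2.67 ± 0.25, adjusted p = 1.29e-08). Scgn, the calcium sensor secretagogin, was at 2.08, 3.78 and 6.42 CPM at D25 and at 8.11, 23.2 and 29.5 CPM at D30 (2.51 ± 0.37, adjusted p = 3.48e-05). Lrtm1 rose 4.17-fold (2.06 ± 0.21, adjusted p = 7.67e-08). Gpr179, a receptor of the Grm6 complex, rose 3.54-fold (1.82 ± 0.22, adjusted p = 1.49e-06). The 6 D30 organoids lay above the 6 D25 organoids for these 4 genes, and D30 organoid 1 was the lowest of the D30 organoids for each.

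Grm6 itself was at 1.13, 3.01 and 4.15 CPM at D25 and at 5.54, 11.2 and 19.3 CPM at D30 (2.11 ± 0.48, adjusted p = 0.00455). Its call was lost without D25 organoid 1, 2 or 5 or D30 organoid 5 or 6 (adjusted p up to 0.0167). The other bipolar genes named by the rule were not called. Vsx1, a factor of cone bipolar cells, was at 2.72, 4.43 and 8.28 CPM at D25 and at 5.99, 10.2 and 19.8 CPM at D30 (1.11 ± 0.48, adjusted p = 0.194), and Prkcb was at 21, 22.3 and 52.5 CPM at D25 and at 15.8, 48.4 and 77.2 CPM at D30 (adjusted p = 0.151). Without any 1 organoid 7 to 9 of the 9 members remained called higher, and DESeq2 called 7 of them.

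Of 24 amacrine cell genes 22 were tested, and 5 fell, against 2.83% of all tested genes called lower. The other 17 were not called, and the median log2 fold change was -0.07. Tfap2b was at 69.4, 121 and 187 CPM at D25 and at 17.4, 32.5 and 46.1 CPM at D30 (-1.88 ± 0.31, adjusted p = 0.000118). Tfap2c went from 8.63, 14 and 17.1 CPM to 3.13, 5.79 and 7.99 CPM (-1.24 ± 0.19, adjusted p = 4.47e-05), and in both genes all D30 organoids lay below all D25 organoids. Pax6, an eye field factor kept in amacrine and ganglion cells, went from 218, 374 and 514 CPM to 156, 222 and 242 CPM (-0.79 ± 0.14, adjusted p = 0.000288), with D25 organoid 1 inside the D30 range. Tfap2a (-1.48 ± 0.36, adjusted p = 0.00923) and the glycine transporter gene Slc6a9 (-0.69 ± 0.16, adjusted p = 0.00485) were less firm. Tfap2a was not called without D25 organoid 2, 3, 4 or 5 or D30 organoid 1, 2, 5 or 6 (adjusted p up to 0.0416), and Slc6a9 not without D25 organoid 3 or 5 or D30 organoid 1, 2, 3 or 4 (adjusted p up to 0.0240). The list held 3 calls without D25 organoid 3 or 5 or D30 organoid 1 or 2. Ebf3 was at 7.24, 9.40 and 13.3 CPM at D25 and at 4.90, 5.46 and 7.82 CPM at D30 (adjusted p = 0.0395).

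Of 8 horizontal cell genes 5 were tested, 2 rose and 2 fell. The calcium buffer gene Calb1, also made in amacrine cells, rose from 2.44, 4.08 and 4.86 CPM to 7.90, 14.3 and 22.0 CPM (1.95 ± 0.33, adjusted p = 0.000199), and Prox1 rose 1.52-fold (0.60 ± 0.12). Onecut1, a factor of early horizontal cell genesis, fell from 2.1, 3.84 and 5.16 CPM to 0.206, 0.761 and 1.05 CPM (-2.30 ± 0.32, adjusted p = 1.63e-05), and the other was Tfap2b. Of 17 ganglion cell genes 15 were tested, 3 fell and 1 rose, against 2.83% lower and 4.55% higher over all tested genes. Sncg, which encodes γ-synuclein, fell from 7.64, 12.7 and 17.9 CPM to 1.37, 2.79 and 3.94 CPM (-2.19 ± 0.29, adjusted p = 6.95e-06). Isl2 was at 1.33, 2.95 and 4.15 CPM at D25 and at most 0.998 CPM at D30 (-2.43 ± 0.44, adjusted p = 0.000455). Pou4f1 fell 2.74-fold (adjusted p = 0.00926), a call lost without any 1 of D25 organoids 2 to 6 or D30 organoids 1 to 3 (adjusted p up to 0.0249). The neurofilament gene Nefl rose 2.38-fold (adjusted p = 0.00697), a call lost without D25 organoid 2, 3, 4 or 5 or D30 organoid 1, 2, 4 or 5 (adjusted p up to 0.0296). Nefl is made in many long axons, and it was lowest at D30 in organoid 6 (42.2 CPM). In that organoid the summed levels of the cortical neuron list (22.2 CPM) and the amacrine cell list (643 CPM) were also lowest at D30. The same held for the ganglion cell list (164 CPM), which includes Nefl. The source of the Nefl rise was not tested.

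All 28 Müller glia genes were tested, and 16 were called higher, against 4.55% of all tested genes. The other 12 were not called, and the median log2 fold change was 0.72. The called members included the glutamate handling genes Slc1a3 and Glul, the water and potassium channels Aqp4 and Kcnj10, the lipid carriers Apoe and Clu, the caveolins Cav1 and Cav2, and Abca8a, Slc7a11, Prdx6, Vim, Dbi, S100a16, Ttyh1 and Cp. Apoe was at 224, 272 and 395 CPM at D25 and at 484, 1119 and 1924 CPM at D30, a 3.91-fold rise with no overlap (1.97 ± 0.20, adjusted p = 7.93e-08). Abca8a was at 0.767, 1.57 and 3.93 CPM at D25 and at 17, 21.3 and 44.1 CPM at D30, a 12.3-fold rise (adjusted p = 8.86e-08). Slc1a3, the glial glutamate transporter, went from 150, 200.2 and 268 CPM to 262, 529 and 793 CPM (1.40 ± 0.19, adjusted p = 1.06e-05), with D30 organoid 6 inside the D25 range. The antioxidant enzyme gene Prdx6 went from 110, 130 and 156 CPM to 150.3, 302 and 602 CPM (1.42 ± 0.20), again with D30 organoid 6 inside the D25 range. The transcription factors Sox2, Sox8, Sox9 and Hes1, which Müller glia share with progenitors, were among the members not called.

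Of 25 reactive gliosis genes 20 were tested, and 11 were called higher, against 4.55% of all tested genes. The other 9 were not called, and the median log2 fold change was 1.705. Gfap was at 25.2, 90.6 and 141 CPM at D25 and at 114, 644 and 2163 CPM at D30 (3.56 ± 0.78, adjusted p = 0.00322). The D30 organoids spread 19.0-fold, from 114 CPM in organoid 6, inside the D25 range, to 2034 and 2163 CPM in organoids 1 and 5. The call of Gfap was lost without D25 organoid 2, 5 or 6 or D30 organoid 5 (adjusted p up to 0.0116). Fgf2, a growth factor induced in stressed photoreceptors and glia, was at 13.2, 14.4 and 22.0 CPM at D25 and at 98.7, 140 and 179 CPM at D30, an 8.77-fold rise (3.13 ± 0.28, adjusted p = 5.17e-09), and was lowest in D30 organoid 1. Il6st, the shared receptor of the interleukin 6 family, rose from 56.9, 63.9 and 80.3 CPM to 121, 167 and 315 CPM (1.48 ± 0.16, adjusted p = 2.20e-07). Stat3, which acts below that receptor, rose from 57.1, 61.6 and 66.2 CPM to 95.6, 116 and 126 CPM (0.88 ± 0.10, adjusted p = 1.07e-06). The neurotrophin gene Bdnf rose 4.28-fold (adjusted p = 0.000988), and Edn2, Ednrb, Osmr, Cd44, Gbp2 and Cebpd were the other members called.

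The glial rises were not equal among the D30 organoids. The summed level of the Müller glia list was 2172 to 2872 CPM at D25 and, at D30, 7286 CPM in organoid 1, 6163 in organoid 5, 4124 to 4993 in organoids 2, 3 and 4 and 3212 in organoid 6. That of the gliosis list was 479 to 688 CPM at D25 and 3430, 3327, 1149 to 1674 and 892 CPM in the same D30 organoids. With D30 organoids 1 and 5 both left out, chosen after their levels were seen, 10 of the 16 Müller glia genes and 5 of the 11 gliosis genes remained called, and Gfap (log2 fold change 2.37, adjusted p = 0.0655) and Bdnf (adjusted p = 0.0176) were not. Without any 1 organoid 11 to 18 Müller glia genes and 8 to 11 gliosis genes were called. The 14 called rod genes were all called without organoids 1 and 5. The summed level of the astrocyte list was 3216 and 3281 CPM in D30 organoids 1 and 5 and 695 to 1728 CPM in the others. Gfap is on both the gliosis and the astrocyte list. It supplied 2034 and 2163 CPM of each sum in organoids 1 and 5, so the sums of these lists are not independent of each other. That of the oligodendrocyte list was highest in D30 organoid 1 (306 CPM), 128 CPM in organoid 5 and lowest in organoid 6 (62.5 CPM). Of 8 tested oligodendrocyte genes 2 rose, Pdgfra among them (2.38 ± 0.30, adjusted p = 2.84e-06). Of 5 tested astrocyte genes 2 rose, Gfap and S100b (3.94 ± 0.71, adjusted p = 0.000414). The share called higher over all tested genes was 4.55%. S100b reached 20.0 CPM in D30 organoid 1, against at most 6.36 CPM in the other D30 organoids, and was not called without organoids 1 and 5 (adjusted p = 0.0202). The part of these cells in the glial rises was not tested.

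**Figure D4:**
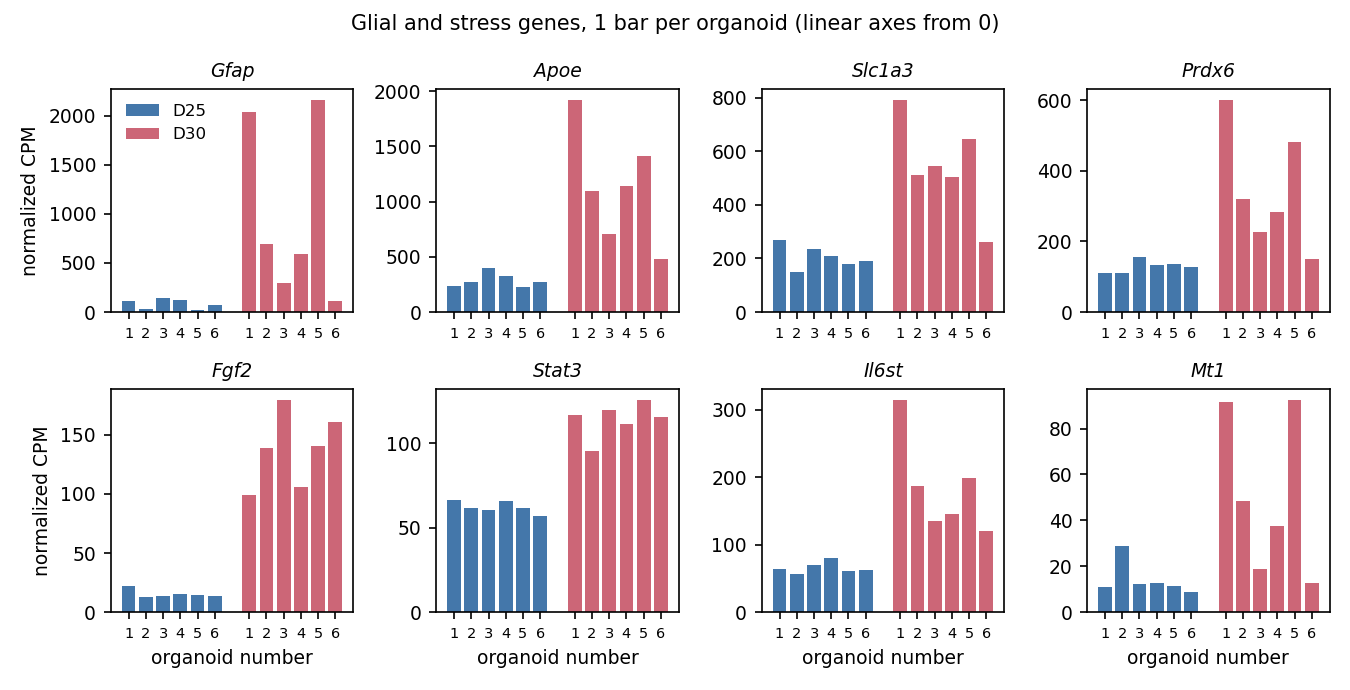
Normalized CPM of 8 glial and stress genes in each organoid, on linear axes that start at 0, with D25 organoids 1 to 6 at the left and D30 organoids 1 to 6 at the right of each panel. Gfap, Apoe, Prdx6 and Mt1 are highest in D30 organoids 1 and 5 and lowest in organoid 6, whereas Fgf2 and Stat3 are above every D25 organoid in all 6 D30 organoids with less spread.

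Of 31 progenitor and Notch pathway genes 29 were tested, 10 fell, 1 rose and 18 were not called, with a median log2 fold change of -0.585. The shares over all tested genes were 2.83% lower and 4.55% higher. The members that fell were Hes6, Heyl, Neurog2, Foxn4, Rax, Six3, Six6, Sfrp2, Ezh2 and Mfng, and Lin28a, which encodes an RNA-binding protein of early progenitors, was the one that rose. Hes6, a target of proneural factors, went from 50.4, 62.0 and 106 CPM to 21.9, 30.0 and 38.9 CPM (-1.21 ± 0.17, adjusted p = 1.09e-05). Foxn4, which opens amacrine and horizontal fates, went from 1.22, 3.15 and 6.84 CPM to 0.343, 0.424 and 0.718 CPM (-2.79 ± 0.35, adjusted p = 2.55e-06). The Polycomb enzyme gene Ezh2 fell 1.5-fold (-0.59 ± 0.08) and the eye field gene Six3 fell 1.94-fold (-0.95 ± 0.15), and no D30 organoid overlapped the D25 organoids for any of these 4 genes. Of 32 cell cycle genes 3 fell and 29 were not called, against 2.83% of all tested genes called lower. A log2 fold change below 0 was found for 31 of the 32 (median -0.44, against 0.05 over all tested genes). The summed level of the list was 513.5 to 1626 CPM at D25 and 618 to 975 CPM at D30, so the groups overlapped. D25 organoid 2 lay below every D30 organoid in this sum. Ccnd1, the D cyclin of retinal progenitors, fell from 35.4, 47.1 and 72.3 CPM to 17.3, 25.1 and 32.6 CPM (-0.98 ± 0.16, adjusted p = 0.000114). The replication helicase gene Mcm7 fell 1.56-fold (adjusted p = 0.000494), and the mitotic kinase gene Aurka fell 1.72-fold (adjusted p = 0.00464), a call lost without D25 organoid 3, 5 or 6 or D30 organoid 2, 3 or 4 (adjusted p up to 0.0257).

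The levels at D20 and D22 show where these genes stood before. Over the 6 organoids of each day (± SD), Gnat1 went from 0.247 ± 0.306 CPM at D20 through 0.732 ± 0.898 and 9.63 ± 2.86 CPM to 269 ± 49.9 CPM at D30, and Pde6a averaged 1.35 ± 0.378, 5.37 ± 2.48, 37.1 ± 8.95 and 310.5 ± 72.8 CPM. Pde6b was already at 289 ± 71.0 CPM at D20 and 648 ± 188 at D22, and stood at 1041 ± 93.2 at D25 and 1034 ± 237 at D30. Cabp5 averaged 2.16 ± 0.966, 3.56 ± 1.67, 11.6 ± 1.72 and 73.8 ± 23.4 CPM at the 4 timepoints. Tfap2b had its highest mean at D25, 123 ± 48.8 CPM, after 32.7 ± 9.44 and 89.2 ± 51.3 CPM and before 33.4 ± 11.4 CPM. Gngt2 and Ece1 had their highest means at D22 (354 ± 66.1 and 165 ± 31.2 CPM). Epha8 and Foxn4 were highest at D20 (119 ± 13.0 and 28.8 ± 8.55 CPM). Gfap averaged 6.76 ± 6.68 CPM at D20 and 11.6 ± 17 CPM at D22, before 83.3 ± 50.2 at D25 and 982 ± 890.1 at D30.

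**Figure D5:**
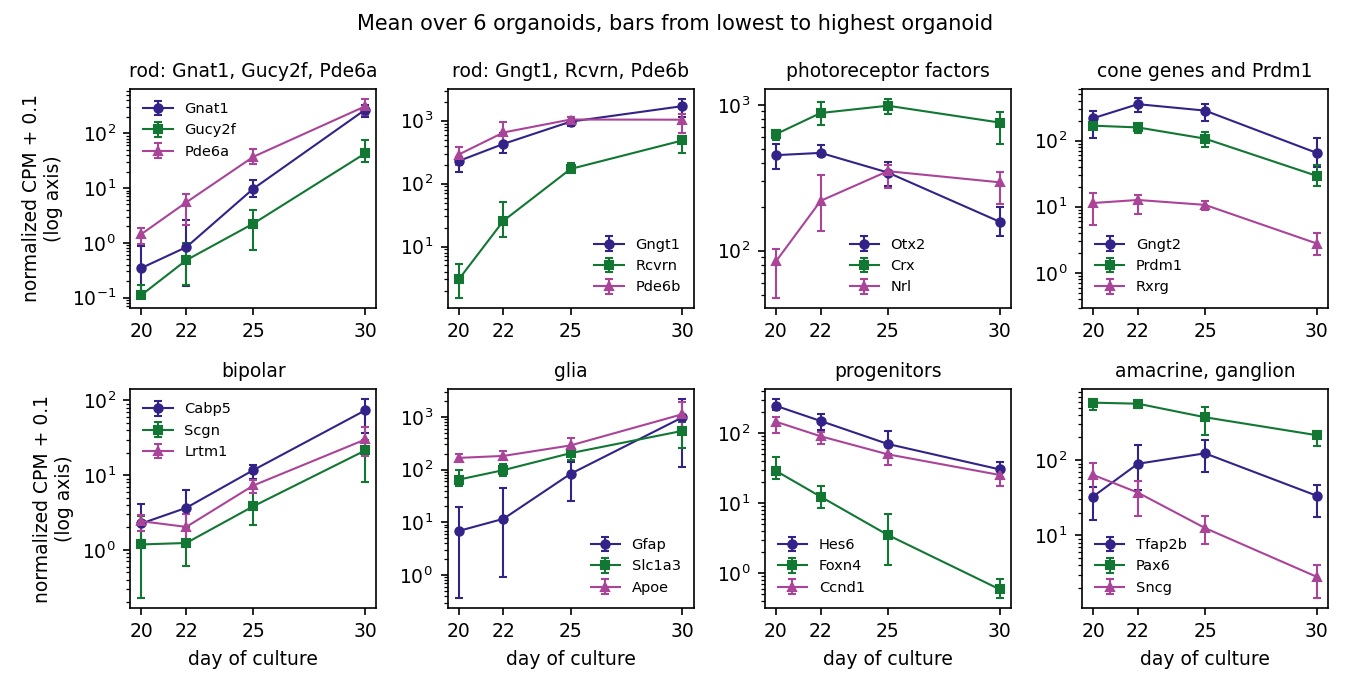
Mean normalized CPM over 6 organoids at D20, D22, D25 and D30 on log axes with 0.1 CPM added, with bars from the lowest to the highest organoid, for 24 genes in 8 groups. Gnat1, Gucy2f and Pde6a rise at every step up to D30, Pde6b has the same level at D25 and D30 (1041 and 1034 CPM), and the bar of Gfap at D30 reaches from 114 to 2163 CPM.

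The study names 25 genes in its account of the time after D25, and because it chose them on these samples their direction is not independent evidence. Of the 23 tested here, 7 rose (among them Gfap, Bdnf, Rcvrn, Gnat1, Grm6 and Scgn), 3 fell (Tfap2a, Pax6 and Isl2) and 13 were not called. Without D30 organoids 1 and 5 the number that rose was 4. Among markers of cells other than retinal neurons and glia, 1 of 7 tested pigment epithelium genes fell, namely Dct (-1.41 ± 0.29, adjusted p = 0.00202), a pigment enzyme gene whose call was lost without D25 organoid 2 (adjusted p = 0.0102). Ttr, the carrier of thyroid hormone and retinol, was at 33.5, 225 and 574 CPM at D25 and at 19.9, 358 and 2627 CPM at D30 (adjusted p = 0.264). Of 4 tested endothelium genes 1 was called, with a list median of -0.026, against 7.38% of all tested genes called in either direction. It was Flt1, a receptor for vascular growth factor, which rose from 1.74, 3.54 and 5.48 CPM to 10.7, 14.3 and 20.0 CPM (2.08 ± 0.37, adjusted p = 0.000338), and Kdr, another such receptor, had a log2 fold change of -0.35 (adjusted p = 0.0353). Of the 11 cortical neuron genes, the 9 mesenchyme genes and the 2 genes of lens and surface epithelium that were tested, edgeR's test called 0 in either direction, 0, 3 and 1 of them had an unadjusted p below 0.05, and DESeq2 called 0, 1 and 0. No cell type of the blood or microglia can be described, since 1 of their 11 genes passed the filter.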

How the data were processed

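Per the labels and the study's methods, the authors made strand-specific libraries from ribosome-depleted total RNA, sequenced them as single reads, trimmed them with cutadapt 1.5, aligned them to GRCm38 with HISAT2, assembled and merged transcripts with StringTie 1.3.3 and deposited raw counts per feature and organoid from HTSeq 0.6.1. The labels list the build GRCh38 beside GRCm38, and the study's methods give GRCm38. Whether counting used strand is not given in the sources used here, so overlapping and antisense genes are uncertain. The features are annotated genes and assembled loci, and the 46949 features whose normalised count averaged 10 or more over 24 organoids entered the fit and the adjustment, 30696 of them loci.

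From these counts the D30 minus D25 contrast was computed with edgeR 4.0.16 (quasi-likelihood test, TMM scaling, all 4 timepoints in the model, Benjamini-Hochberg adjustment, threshold 0.01, two-sided) in R 4.3.3. The standard error is the log2 fold change divided by the square root of the F statistic. CPM per kilobase of exon used the summed exon length in GENCODE vM21, whatever isoform is expressed. Organoids of 1 experiment share their culture. The p-values therefore set each difference against the spread between organoids within the 4 timepoints of that experiment, and carry no variation between differentiations. Depth sets the precision through the 3-count floor, which covers counting error only. The pairwise comparison of libraries found no repeated library. The tests were tried first on simulated counts with a single dispersion for all features, lower than the common dispersion of these data. Changes were planted only in well-counted features, so the trial does not give the error rates for these data.

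The comparison, the 39 gene lists and the tests were chosen with earlier results of these data known. Genes were named by rule: the 12 largest rises and falls, up to 4 called members of each list by adjusted p (up to 2 by level where fewer than 2 were called), genes the study names and the 3 most abundant called genes in each direction. Members beyond it are named to give a list's calls in full, and members singled out as not called were chosen after their values were seen. Mitochondrially encoded genes, 37 in number, were listed at 0 in all 12 organoids and not analysed. The alternatives were DESeq2 1.42.0, other scalings and filters, annotated genes alone, D25 and D30 alone, the replicate number as a block and each organoid left out. Leaving out D30 organoids 1 and 5 together was added after seeing the data. Some genes that the rule names are not reported here.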

Additional observations from a re-analysis of the deposited data

Results flagged for a closer look

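In groups of 6 organoids, the highest or lowest organoid stood apart from the others by Dixon's criterion in 16 of the 208 groups examined, and chance gives about 1 in 20. D25 organoid 1 was low for Aifm1 (75.1 CPM), Nrl (268 CPM) and Pou4f1 (2.66 CPM) and high for Fgf2 (22.0 CPM), Lhfpl3 (5.79 CPM) and Prkcb (52.5 CPM). D25 organoid 2 was high for both metallothionein genes, Mt1 (28.8 CPM) and Mt2 (12.5 CPM), and for Tnnt2 (2.09 CPM). The other high D25 values were those of Nid1 (15.0 CPM) in organoid 4, Slc6a9 (58.7 CPM) in organoid 5 and Edn2 (0.244 CPM) in organoid 6. At D30, organoid 1 was high for S100b (20.0 CPM), organoid 2 for C230057A21Rik (7.22 CPM), organoid 3 for Gucy2f (73.8 CPM) and organoid 6 for Nid1 (62.5 CPM). The call of S100b was lost with D30 organoids 1 and 5 left out, and the cause was not tested.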

How the results depend on the processing

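Without 1 organoid the number of annotated genes called ranged from 836 to 1395, the number higher from 503 to 981 and the number lower from 333 to 474. Without D30 organoids 1 and 5 together, 729 genes were called and 398 were higher. At an adjusted p below 0.05 the counts were 2142 in all, 1345 higher and 797 lower, and with a change of at least 2-fold 551, 377 and 174. DESeq2 called 1132 higher, and the fit of annotated genes alone called 744 lower. The share of calls that were higher was 61.6%, and 70.8% with DESeq2, 71% with DESeq2 size factors in edgeR, 71% with D25 and D30 alone and 50% with annotated genes alone. With the replicate number as a block, 1051 genes were called, 628 higher and 423 lower. The numbers do not pair the organoids, since the correlation of same-numbered organoids ranged from -0.0568 to 0.214. Pde6b, not called in any setting, had a log2 fold change of the other sign with DESeq2 or its size factors (0.036) and without D30 organoids 1 and 5 (0.083), and ranged from -0.081 to 0.095 without single organoids. Of the 103 genes described, 75 kept their direction and their side of the threshold in all 20 settings. Depth limits genes near the floor, such as Edn2.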

Other observations

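Over all tested genes 4.55% were called higher and 2.83% lower, and several metabolic and stress lists held 1 or 2 calls, near those shares. Of 15 tested metallothionein and antioxidant genes 6 rose (Mt1, Mt2, Mt3, Gsr, Srxn1 and Prdx1, median log2 fold change of the list 0.70). Mt1, which binds zinc and copper, was at 8.97, 12 and 28.8 CPM (lowest, median and highest) at D25 and at 12.9, 43.0 and 92.4 CPM at D30 (log2 fold change 1.82 ± 0.37 SE, adjusted p = 0.00179). The list had 3 calls without D25 organoid 4, 5 or 6 or D30 organoid 1 or 5, 9 without D30 organoid 6, and 0 without both D30 organoids 1 and 5 (Mt1 adjusted p = 0.0775). Of 9 tested genes of the interferon response and MHC class I, 4 rose, among them Irf9, B2m and H2-D1 (1.09 ± 0.16), the last from 16.1, 27 and 33.5 CPM to 35.9, 59.7 and 72.7 CPM with no overlap. That list had 2 calls without D25 organoid 1, 2 or 4 or D30 organoid 5 or 6, and with no filter on low counts. Of 26 matrix genes 3 rose and 23 were not called. Sparc, a collagen-binding protein, rose 1.90-fold (adjusted p = 4.75e-05), Col9a1 1.84-fold (adjusted p = 0.00761) and the basement membrane gene Nid1 3.97-fold (adjusted p = 0.00422). The last 2 were lost without single organoids (9 and 6 of the 12, adjusted p up to 0.0264 and 0.0228).

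In glycolysis and hypoxia, Hk1, a hexokinase, rose from 265, 320 and 382 CPM to 483, 662 and 723 CPM (0.97 ± 0.10, adjusted p = 7.67e-08), and Ldha and Ndrg1 (-0.48 ± 0.10) fell, of 26 tested. Of 22 cholesterol synthesis genes 1 rose, Pmvk (0.76 ± 0.13). Of 18 clock genes Per3 (0.53 ± 0.11) and Tef (0.34 ± 0.08) rose. Per3 was not called without D30 organoid 3 (adjusted p = 0.0104), and Tef not without 9 of the 12 organoids (adjusted p up to 0.0259). Of 21 genes of the unfolded protein and amino acid response Atf3 (1.14 ± 0.27) and Phgdh (1.51 ± 0.36) rose, calls lost without 9 and 8 of the 12 organoids (adjusted p up to 0.0223 and 0.0366). Of 22 apoptosis genes 1 fell, Aifm1 (-0.42 ± 0.09), a call lost without D25 organoid 3 or 5 or D30 organoid 2 (adjusted p up to 0.0122). Of 7 complement genes 1 fell, Serping1 (-1.55 ± 0.26, adjusted p = 0.000221). edgeR's test called 0 of 14 immediate early genes (8 higher and 1 lower at an unadjusted p below 0.05, 2 called by DESeq2), 0 of 77 cytosolic ribosomal protein genes (1 higher and 16 lower, 0 by DESeq2) and 0 of 2 crystallin genes (0 and 0).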
